A study of Saccharomyces cerevisiae with 6 samples.

Results

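The hexose transporter genes of budding yeast were followed here through 10 members of the HXT family, HXT1, HXT2, HXT3, HXT4, HXT5, HXT6, HXT7, HXT9, HXT13 and HXT16, out of 5365 genes named on the array. They were chosen by gene symbol, and each is represented by 1 probe. Of the 10, 8 had a value in each of the 3 replicates, as did 3613 of the 5365 genes, and HXT2 and HXT4 had a value in 2 replicates. Cells of strain S288C were grown at 25 °C in YPD, a rich medium with 2% glucose, to exponential phase (OD 1). The thorium cultures then received 5 mM thorium, an actinide metal, for 2 h, and the untreated cultures grew on for 2 h. The polyA RNA of thorium-treated cells (Cy5) and of untreated cells (Cy3) was hybridised to one array, in 3 hybridizations of independent biological samples, and each array was scanned with a strong and a weak laser setting (high and low power).

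Hexoses enter yeast by facilitated diffusion through carriers of this family, which differ in their affinity for glucose. The membrane sensors Snf3 and Rgt2 report external glucose and lead to destruction of Mth1 and Std1. This frees several HXT genes from the repressor Rgt1, while Mig1 and Mig2 repress some HXT genes when glucose is plentiful. HXT1 and HXT3 code for low-affinity carriers used at high glucose, HXT2, HXT4, HXT6 and HXT7 for carriers of moderate or high affinity used at lower glucose, and HXT5 for a carrier of slow-growing cells. HXT9, HXT13 and HXT16 are little transcribed in glucose medium, and the products of HXT13 and HXT16 have been reported to carry hexitols such as mannitol and sorbitol.

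Values are log2 ratios of thorium over untreated, so that a value above 0 is likely more RNA in thorium-treated cells. The direction rests on which dye the labels list as the first channel, and base 2 was assumed, since the deposited table states neither. No hybridization with exchanged dyes was given, so dye bias and treatment cannot be told apart. A ratio from a whole culture cannot tell fewer expressing cells from less RNA per cell. No signal intensities were used, so the levels of the genes relative to each other are not known.

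The replicates did not resemble each other to the same degree. Across the 3613 genes, replicate 1 correlated with replicate 2 at Pearson r = 0.09 and with replicate 3 at r = 0.02, while replicates 2 and 3 correlated at r = 0.56, a description over genes, which are not independent. Of 6912 probes, between 40.2% and 79.3% had a value in a scan, least in the low power scan of replicate 1. The ratios also varied with the position of the probe on the array, so each member is set beside the median of its array section, the 36 spots that share the first 3 digits of the probe number. Because replicate 1 stands apart, results are given with and without it.

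In their means over replicates the HXT genes as a family read higher in thorium than most genes, without a member past the threshold. This did not hold in each replicate. In replicate 1 the member median was -0.08 against -0.11 for all genes, and without replicate 3 the family median was 0.15. All 8 members with 3 replicates had a mean above 0, in a range of 0.07 to 1.48, and their median was 0.55 against -0.09 for all genes tested. Of all genes tested 43.5% had a mean above 0. The values were above 0 in every replicate for 2 of the 8, HXT9 and HXT13, beside 15.4% of all genes. Limma's moderated test with Benjamini-Hochberg adjustment called 0 of the 8 members and 0 of 3613 genes (0% higher, 0% lower). At an unadjusted p under 0.05, limma had 3 of the 8 members, HXT9, HXT13 and HXT16, all above 0, beside 5.7% of all genes on that side and 499 genes (13.8%) on either, and the unmoderated statistic had 369 genes. The moderated test draws each gene's variance toward that of all genes. The standard errors of HXT13 and HXT16, with SDs of 1.15 and 1.44, were thus smaller than from their own replicates. The number of members under the unmoderated statistic at this unadjusted level is not reported here. Since the members were chosen with earlier results of these data known, these counts describe the family and do not test it.

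Among the low-affinity carriers, HXT1 read 0.16 at high power and 0.10 at low power in replicate 1, -0.45 and 0.41 in replicate 2, and 1.43 and 1.50 in replicate 3. One replicate was high and the other 2 lay near 0. The mean was 0.53 ± 0.82 (SD, n = 3), with a 95% interval of -0.38 to 1.43 (limma, adjusted p = 0.546). HXT3 read -0.05 and 0.01 in replicate 1, 0.26 at low power in replicate 2, where the high power scan gave no value, and 0.67 and 0.66 in replicate 3. Its replicates lay closer together, at 0.30 ± 0.35 (SD, n = 3), with an interval of -0.40 to 1.00 (limma, adjusted p = 0.650). For both genes the mean was smaller than the SD over replicates. HXT3 was at 0.47 without replicate 1 and at 0.12 without replicate 3, and section-centring, the subtraction of the section median in each scan, left it at 0.46. HXT1 and HXT5 were the 2 members with both scans in all 3 replicates, and their high minus low power differences averaged -0.29 and -0.23 (limma, adjusted p = 0.929 for each, 0.0949% of 2108 genes called).

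Among the carriers of moderate or high affinity, HXT6 read -0.87 in the low power scan of replicate 1, 0.41 in the low power scan of replicate 2, and 0.69 and 0.82 at high and low power in replicate 3. HXT7, which lies next to HXT6 on chromosome IV and codes for an almost identical protein, read -0.87, 0.33 and 0.74 in the low power scans of replicates 1, 2 and 3 and had no value at high power. Both were below 0 in replicate 1 and above 0 in the other 2. The means were 0.10 ± 0.85 for HXT6 (interval -0.83 to 1.02, limma adjusted p = 0.921) and 0.07 ± 0.84 for HXT7 (interval -0.85 to 0.98, limma adjusted p = 0.947; SD, n = 3 each), the lowest of the 8 members. Without replicate 1 they were 0.58 and 0.53, still not past the threshold (limma, adjusted p = 0.220 and 0.263). Both means were below 0 when replicate 2 or replicate 3 was left out, at -0.06 and -0.23 for HXT6 and at -0.07 and -0.27 for HXT7. After section-centring HXT7 was at -0.24 and HXT6 at 0.15, so no direction can be given for either gene.

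HXT2 and HXT4, which are induced by low glucose, had no value in replicate 1. HXT2 read -0.48 and -0.14 at high and low power in replicate 2, and 1.84 and 1.80 in replicate 3. HXT4 read -0.79 and 0.08 in replicate 2, and 0.76 and 0.68 in replicate 3. The replicates were thus on opposite sides of 0 for both genes, and neither entered the test on 3 replicates. The array section of HXT2 had the lowest median of any member's section, -0.99 in replicate 2 and -0.62 in replicate 3, and after subtraction HXT2 read 0.68 and 2.44. HXT4, in a section with medians of -0.51 and -0.49, read 0.15 and 1.21 after subtraction.

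HXT5, the carrier made by cells that grow slowly or run out of glucose, read -0.27 and -0.01 in replicate 1, 0.20 and 0.80 in replicate 2, and 1.47 and 1.30 in replicate 3. The replicates spread over both sides of 0, with a mean of 0.58 ± 0.77 (SD, n = 3) and an interval of -0.30 to 1.46 (limma, adjusted p = 0.499). Without replicate 1 the mean was 0.94 (limma, adjusted p = 0.103), and without replicate 3 it was 0.18 (limma, adjusted p = 0.937). HXT1, which lies next to HXT5 on chromosome VIII, was at 0.06 without replicate 3 (limma, adjusted p = 0.981), so both genes rest largely on that hybridization.

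HXT9, a transporter gene under the drug-resistance activators Pdr1 and Pdr3, was the member with the smallest spread. It read 1.14 at high power in replicate 1, 0.80 in both scans of replicate 2, and 0.75 and 0.46 in replicate 3. All 5 scans with a value lay above 0, and the mean of 0.85 ± 0.27 (SD, n = 3) corresponds to a 1.80-fold ratio. The interval ran from 0.17 to 1.53 (limma, unadjusted p = 0.0220, adjusted p = 0.299), and 184 of 3613 genes had a higher mean. HXT9 was also the member that stood highest in replicate 1, where 5 of the 8 members with a value were below 0. Its section median was below 0 in every replicate, and after section-centring it was at 1.08 ± 0.32. The means with 1 replicate left out ran from 0.70 to 0.97.

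HXT13 and HXT16 had the highest means of the family and a wide spread. HXT13 read 0.04 at high power in replicate 1, 2.38 and 2.23 in replicate 2, and 1.51 and 1.42 in replicate 3. HXT16 read -0.19 at high power in replicate 1, 2.43 and 2.19 in replicate 2, and 2.31 at high power in replicate 3. For both genes replicate 1 was near 0 and the other 2 replicates were far above it. The mean of HXT13 was 1.27 ± 1.15 (interval 0.17 to 2.37, limma unadjusted p = 0.0296, adjusted p = 0.311) and that of HXT16 was 1.48 ± 1.44 (interval 0.19 to 2.77, limma unadjusted p = 0.0309, adjusted p = 0.315; SD, n = 3 each). The moderated variance made both intervals narrower than the gene's own SD would. These means are 2.41-fold and 2.78-fold ratios, and 61 and 30 of 3613 genes had a higher mean.

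Without replicate 1, HXT13 stood at 1.89 and HXT16 at 2.31, and both passed the threshold as higher in thorium (limma, adjusted p = 0.0254 and 0.0146). They were 2 of the 8 members with a call in that fit on 2 replicates, beside 81 of 3613 genes called higher (2.24%) and 110 called lower (3.04%). The calls did not hold once the median of the array section was also subtracted, a setting chosen after seeing the data. HXT13 was then at 1.52 and HXT16 at 1.60 (limma, adjusted p = 0.0810 and 0.0823), and 0 genes passed. Replicate 1 was the one in which both genes read near 0, so leaving it out raised both means. With replicate 2 left out instead, neither passed (limma, adjusted p = 0.882 for each), nor with replicate 3 left out (limma, adjusted p = 0.751 for each). Over the scans in which the gene had a value, the section of HXT16 had medians of -0.56, 0.97 and 0.44 in replicates 1, 2 and 3, and that of HXT13 had -0.83, 0.79 and -0.06. Over all 3 replicates section-centring put HXT13 at 0.87, 1.51 and 1.53, a mean of 1.30 ± 0.38, and HXT16 at 0.37, 1.34 and 1.87, a mean of 1.19 ± 0.76 (SD, n = 3 each). Both were then above 0 in every replicate, yet not past the threshold (limma, adjusted p = 0.130 and 0.147).

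**Figure D1:**
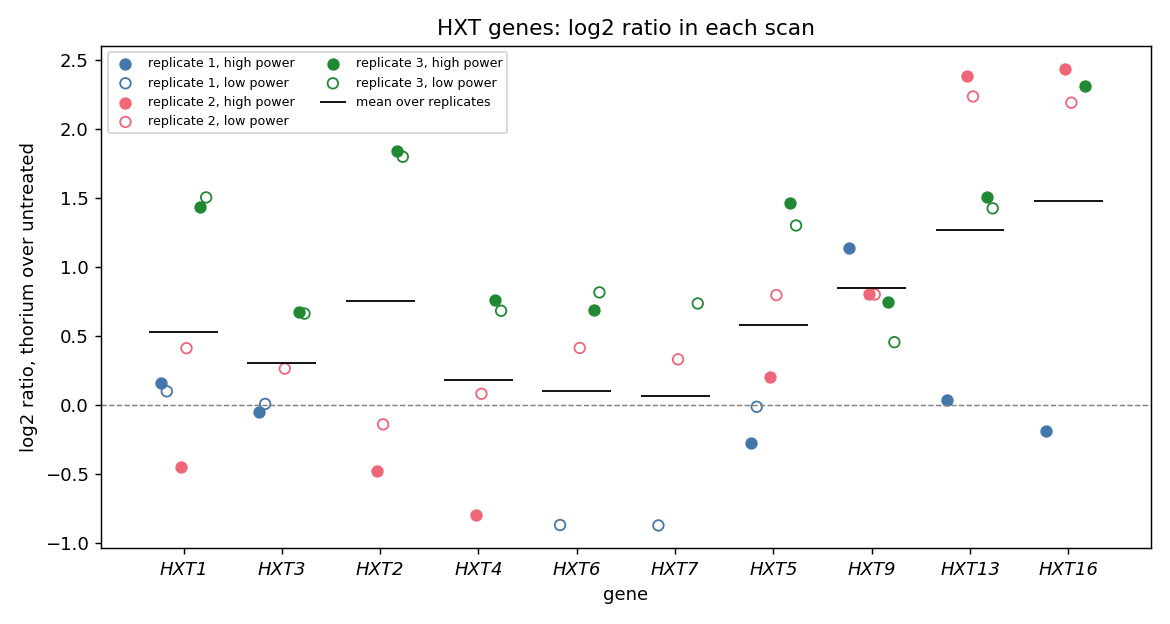
Log2 ratio of thorium over untreated (vertical axis) for each of the 10 HXT genes (horizontal axis). Filled circles are high power and open circles low power scans, coloured by replicate, and bars are the mean over replicates. HXT13 and HXT16 have replicate 2 at 2.31 each with replicate 1 near 0, and HXT9 lies above 0 in every scan with a value.

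The position of the members among all genes differed from replicate to replicate. In replicate 1, 3 of 8 members with a value were above 0, beside 44.1% of all genes tested. Their median was -0.08 against -0.11 for all genes. In replicate 2, 7 of 10 were above 0, beside 44.0% of all genes, with a median of 0.37 against -0.12. In replicate 3 all 10 were above 0, in a range of 0.60 to 2.31, beside 46.8% of all genes. Their median was then 1.07 against -0.05. Of the 10, 0 in replicate 1, 2 in replicate 2 and 5 in replicate 3 (HXT1, HXT2, HXT5, HXT13 and HXT16) lay above the 95th percentile of all genes. Replicate 3 was the highest of the 3 for 6 of 8 members, beside 30.4% of all genes, and replicate 1 the lowest for 6 of 8, beside 41.2%. Without replicate 1 the median of the 8 was 0.71. All 8 means were then above 0, beside 46.1% of all genes, and 7 were above 0 in both remaining replicates, beside 30.8%. Without replicate 3 the median was 0.15, with 6 of the 8 means above 0, HXT6 and HXT7 being below.

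**Figure D2:**
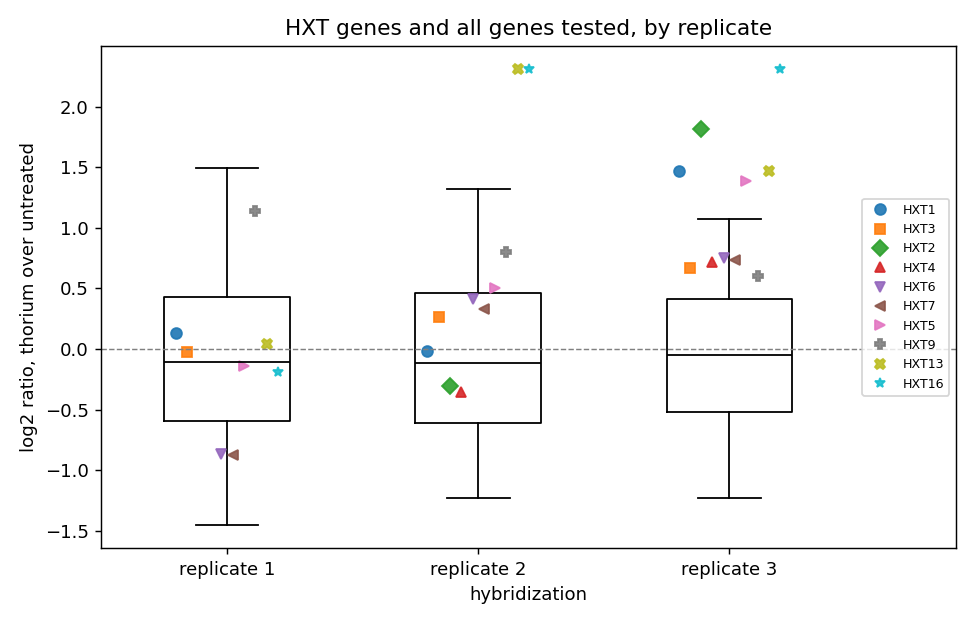
Log2 ratio of thorium over untreated (vertical axis) in each hybridization (horizontal axis), with boxes for the 3613 genes tested (median, quartiles, whiskers at the 5th and 95th percentiles) and symbols for the HXT genes. All 10 HXT genes lie above 0 in replicate 3, beside 46.8% of all genes, and 3 of 8 do in replicate 1, beside 44.1%.

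The members also differed in which other members they resembled. For each of the 45 pairs, the root mean square difference of the log2 ratios was taken over the scans in which both had a value. The smallest was that of HXT6 and HXT7, 0.07 over 3 shared scans, with no scan differing by more than 0.08 as deposited, and 0.51 after section-centring. HXT13 and HXT16, also close paralogs, differed by 0.42 over 4 scans (0.33 after section-centring). HXT1 and HXT5, which are adjacent genes but not close copies, differed by 0.37 over 6 scans (0.33), and HXT3 and HXT4 by 0.12 over 3 (0.19). The largest was that of HXT4 and HXT16, 2.40 over 3 scans (1.04). After section-centring the smallest was that of HXT3 and HXT4 and the largest that of HXT7 and HXT16, at 1.88. Close paralogs may share signal on these probes, so the counts of members given above and below, which include both HXT6 and HXT7 and both HXT13 and HXT16, are not counts of independent genes. Whether other members, such as HXT3 and HXT4, share signal was not tested.

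**Figure D3:**
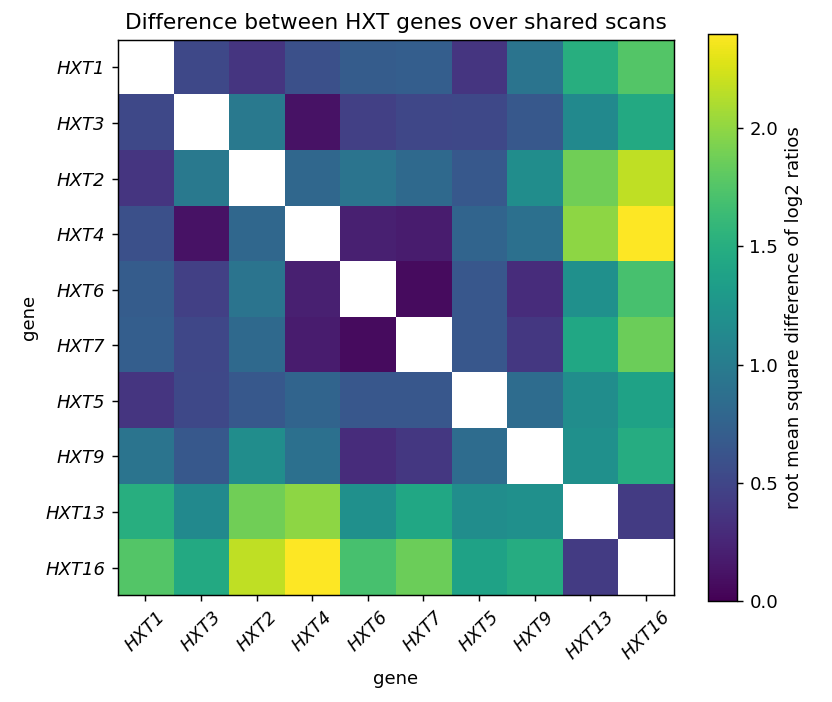
Root mean square difference of log2 ratios (colour) for each pair of HXT genes, over the scans in which both have a value. As deposited, HXT6 and HXT7 differ least, at 0.07, and HXT4 and HXT16 most, at 2.40.

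Further HXT genes outside the 10 gave values to set beside their nearest paralogs. HXT12, annotated as a pseudogene and a close relative of HXT9 and HXT11, read 1.53, 1.08 and 0.77 in replicates 1, 2 and 3, above HXT9 by 0.39, 0.28 and 0.17. After section-centring it read 1.01, 1.18 and 0.65, above HXT9 in replicate 2 and below it in replicates 1 and 3, so no order can be given for these genes. HXT11, whose protein closely resembles that of HXT9, read 0.29, 0.54 and -0.70, below HXT9 in each replicate, and after section-centring 0.01, 1.21 and 0.05, above HXT9 in replicate 2 and below it in replicates 1 and 3. HXT15, a close paralog of HXT16 and HXT13, read 0.36, 0.57 and 0.32, near its own mean of 0.42 in every replicate as deposited. After section-centring it read 0.56, 1.11 and 0.36. HXT16 minus HXT15 was -0.55, 1.74 and 1.99 in replicates 1, 2 and 3 as deposited, and -0.19, 0.23 and 1.51 after section-centring. The large difference in replicate 3 was thus present in both forms, and that in replicate 2 was not. All 4 of the further family genes with 3 replicates, of 8 with a probe, had a mean above 0, beside 43.5% of all genes. Their median was 0.34 (0.56 after section-centring). Of the 4, 2 (HXT12 and HXT15) were above 0 in every replicate, beside 15.4% of all genes, and 0 passed the threshold. The others were HXT11 at 0.04 and HXT8 at 0.27, the latter with replicates of -1.15, 0.63 and 1.34.

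The genes nearest to HXT16 over the 3 replicates, by Euclidean distance, were MAL31, which codes for a maltose permease, at 0.33, COS111 at 0.63 and TDA1, a protein kinase gene, at 0.69. MAL31 read -0.05, 2.17 and 2.04, again 1 replicate near 0 and 2 above. Its probe lies in a section with medians of -0.49, 0.91 and 0.45, close to those of the section of HXT16. After section-centring MAL31 was still the nearest gene to HXT16, at 0.29, while COS111 ranked 55th and TDA1 32nd. Those nearest to HXT13 were ACS1, an acetyl-CoA synthetase gene, at 0.21, UBP11, a ubiquitin protease gene, at 0.41 and PIB2 at 0.57. These 3 ranked 65th, 38th and 77th after section-centring. HXT13 was the 7th nearest gene to HXT16 and HXT16 the 19th nearest to HXT13. With 3 replicates of 1 comparison this likeness is a description.

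The same members led under the corrections for array position. HXT16, HXT13 and HXT9 had the 3 highest means of the 8 as deposited, after section-centring and after a loess fitted to the 2 coordinates of the probe. Without replicate 2 HXT13 was at 0.75, below HXT16 at 1.06, HXT9 at 0.87 and HXT1 at 0.80.

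**Figure D4:**
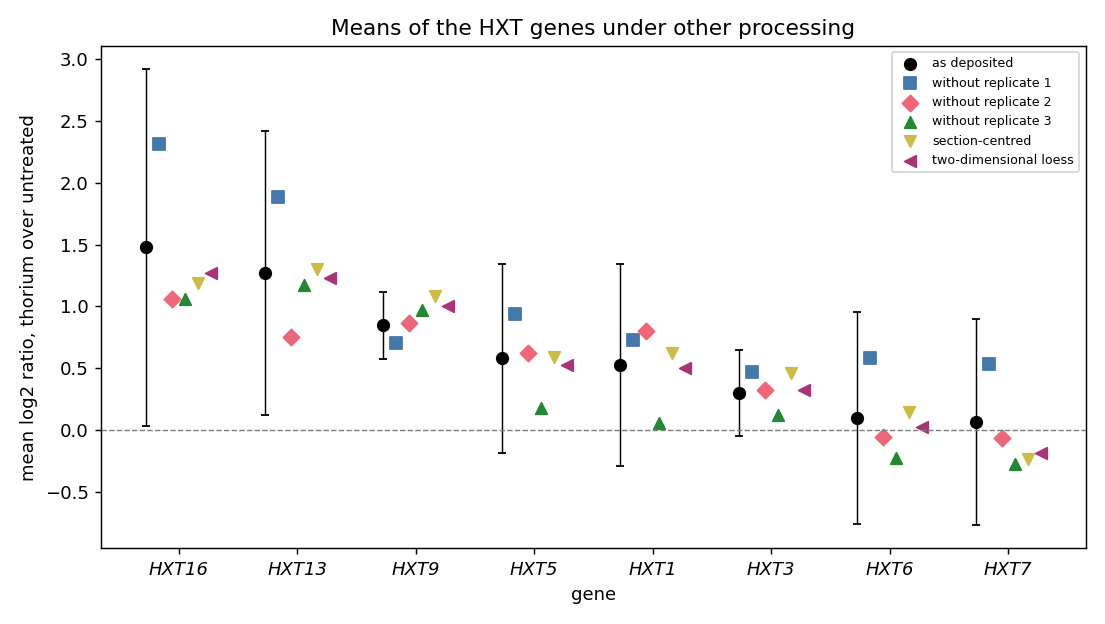
Mean log2 ratio of thorium over untreated (vertical axis) for the 8 HXT genes with 3 replicates (horizontal axis), as deposited with the SD over replicates as bars, with each replicate left out, and after each correction for array position. HXT16 ranges from 1.06 to 2.31, and HXT6 and HXT7 lie on both sides of 0.

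Genes that sense glucose and control HXT transcription gave mixed values, and 0 of them passed the threshold. Since their ratios too moved with array position, the section-centred mean of each named gene is given in parentheses. In the list for glucose sensing and HXT induction 3 of 7 genes with a probe had 3 replicates. All 3 had a mean above 0, beside 43.5% of all genes, and 1 was above 0 in every replicate, beside 15.4%. STD1, a corepressor with Rgt1, was at 0.64 (0.62), the sensor gene RGT2 at 0.28 (0.13) and the casein kinase gene YCK1 at 0.02 (-0.18). In the glucose repression list 4 of 12 measured genes, of 17 with a probe, had a mean above 0, beside 43.5% of all genes. Of the 12, 2 were above 0 in every replicate, near the 15.4% of all genes, while 3 were below 0 in every replicate. The share of all genes below 0 in every replicate is not reported here. The list's median was -0.21, but 0.11 after section-centring, where 7 of the 12 were above 0. The share of all genes above 0 after section-centring is not reported here, so no background stands beside that count. MIG2, a repressor of HXT genes that is itself induced by glucose, read 1.48, 2.38 and 2.70, a mean of 2.19 ± 0.63 (SD, n = 3; limma, unadjusted p = 0.000482, adjusted p = 0.271). Section-centring left it at 1.54 ± 0.77. TOS3, a kinase of the Snf1 pathway, was at -0.93 (-0.34), TUP1, a corepressor used by Mig1, at 0.80 (0.83), and SNF4, a subunit of the Snf1 kinase, at -0.79 (-0.53). SNF4 was below 0 in every replicate in both forms, and TOS3 as deposited only.

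Genes that act on sugars after or beside the HXT carriers lay on both sides of 0. Of 5 hexose phosphorylation genes 2 had a mean above 0 and 1 was above 0 in every replicate. The shares of all genes were 43.5% and 15.4%. The median of the 5 was -0.05 (0.17 after section-centring), and 0 passed the threshold. The named ones were HXK2, the main hexokinase gene in glucose, at -0.71 ± 0.29 (-0.33 ± 0.72 after section-centring; SD, n = 3), GLK1, the glucokinase gene, at 0.46 (0.51), HXK1 at -0.36 (-0.23) and PGI1, the phosphoglucose isomerase gene, at 0.33 (0.25). HXK2 was below 0 in every replicate as deposited, and read -1.15, 0.14 and 0.03 after section-centring. Of 4 measured genes for other sugar and polyol transporters, of 7 with a probe, 3 were above 0, beside 43.5% of all genes. The median of the 4 was 0.47, and 0 passed the threshold. They were MAL31 at 1.39 (1.10), the maltose transporter gene MPH2 at 0.57 (1.14), and the inositol transporter genes ITR1 at 0.37 (0.17) and ITR2 at -0.36 (-0.28). Of 5 measured genes repressed by glucose, of 10 with a probe, 3 were above 0, beside the same 43.5%. The median of these 5 was 0.20, and 0 passed the threshold. CAT8, an activator of gluconeogenic genes, was at 0.97 (0.43) and above 0 in every replicate in both forms. JEN1, a lactate permease gene, was at 0.80 (0.89) with replicates of -1.57, 2.11 and 1.85, the activator gene ADR1 at -0.24 (-0.24) and the invertase gene SUC2 at 0.20 (0.48).

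Pdr1 and Pdr3 act on HXT9, and the list used here, of these regulators and some of their other targets, lay on both sides of 0. Of 6 measured genes, of 7 with a probe, 3 had a mean above 0 and 2 were above 0 in every replicate. The shares of all genes were 43.5% and 15.4%. The median of the 6 was -0.03, and 0 passed the threshold. These values include the regulator gene PDR1, at 0.22 (-0.21 after section-centring), which is not counted as a target. RSB1, a sphingoid base transporter gene, was at 1.45 (1.75 after section-centring), while the drug pump genes were at -0.50 (-0.10) for PDR5, -0.37 (-0.82) for SNQ2 and 0.42 (0.10) for YOR1.

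Several hexitol dehydrogenase genes lie beside HXT genes, with 0 annotated genes between them. DSF1, a mannitol dehydrogenase gene next to HXT13 on chromosome V, read 0.31, 1.40 and 2.42, a mean of 1.38 (limma, unadjusted p = 0.0172, adjusted p = 0.299), and 1.02 after section-centring. It was above 0 in every replicate in both forms. SOR1, a sorbitol dehydrogenase gene next to HXT16 on chromosome X, read -1.53, 0.06 and -0.64, a mean of -0.70 (-0.61), while HXT16 was at 1.48 (1.19). SOR2, next to HXT15 on chromosome IV, was at -0.59 (-0.15), below 0 in every replicate as deposited and in 2 of 3 after section-centring. Of these 3 measured genes 1 had a mean above 0, beside 43.5% of all genes, and 0 passed the threshold.

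**Figure D5:**
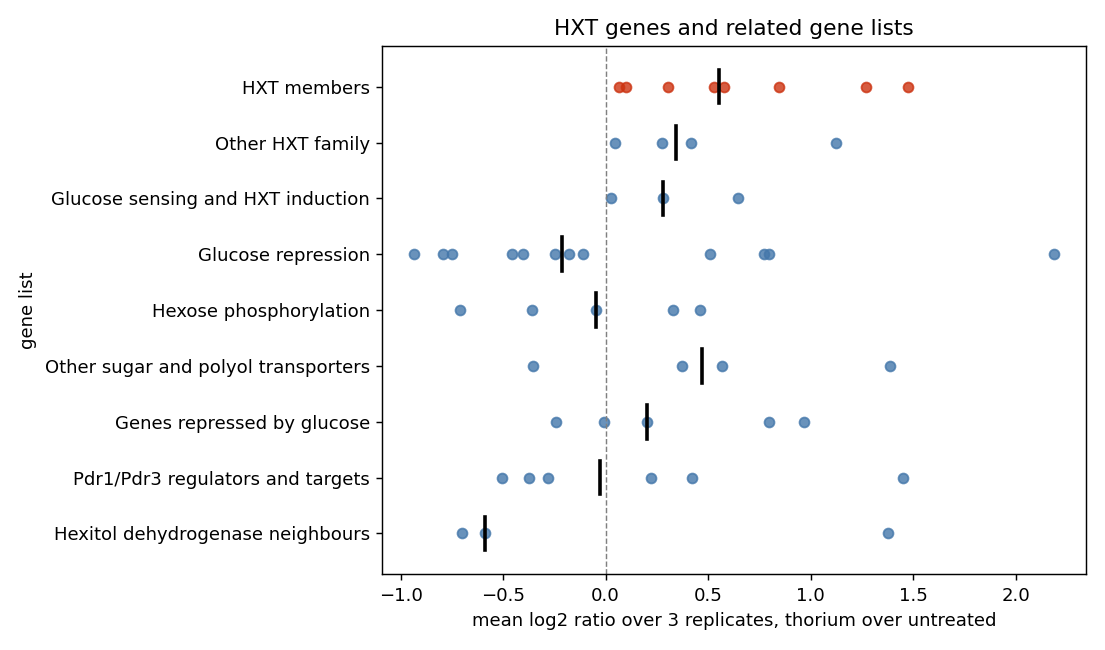
Mean log2 ratio of thorium over untreated over 3 replicates (horizontal axis) for the HXT genes and each related list (vertical axis), with a point per gene and a bar at the list's median. The 8 HXT genes lie above 0 with a median of 0.55, and the glucose repression list spans -0.93 to 2.19.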

How the data were processed

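The deposited values of these 2-colour arrays were taken to be log2 ratios, given for every spot in each scan. The authors ran a LOWESS normalization on the spots flagged 0, per the labels, and merged the scans of an array in GeneSpring, a merge not used here. The scanner, image software, background step and software versions were not given in the sources used here. After LOWESS a shift shared by most genes cannot be seen, and the number of arrays limits precision.

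Of 6912 probes 5513 carried 1 gene symbol, 1399 are unnamed here and 0 carried several. Symbols were matched by Entrez ID to the RefSeq gene table (assembly R64) for 5360 of 5365 genes. Values were averaged over a gene's probes and then over the scans of its replicate. Genes with all 3 replicates were tested against 0 with limma 3.58.1 in R 4.3.3 (lmFit, eBayes), 2-sided, Benjamini-Hochberg threshold 0.05, with 2 residual and 4.43 prior degrees of freedom. The test was tried on simulated data, and the outcome is not reported here. Array sections, 192 in all, were read from the probe number, an inferred layout. Their medians were subtracted where a scan had at least 5 genes in the section. The loess used a span of 0.05.

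The alternatives were each scan power, a replicate block, other gene filters, centrings, position corrections, each replicate left out, a robust prior, probe medians, an unmoderated statistic and a threshold of 0.1. The members and lists were chosen with earlier results of these data known. All 10 members are named, and up to 4 measured genes of each list with the largest absolute mean. For the 2 members with the largest absolute mean, the 3 nearest genes are named. HXT12, HXT11 and HXT15 were set beside their paralogs after their values were seen. Sequences were not analysed here.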

Additional observations from a re-analysis of the deposited data

How the results depend on the processing

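The call count of 0 for all genes and for the 8 members held under every alternative except leaving out a replicate, where counts ran from 0 to 191 genes and from 0 to 2 members, the upper ends being without replicate 1. With all 6 scans and the replicate as a block, 0 genes passed and the median of the 8 was 0.55. The median ran from 0.15 to 0.71 with a replicate left out, and the number of the 8 means above 0 from 6 to 8. That number was 5 of 5 in the high power scans, 5 of 5 in the low power scans and 2 of 2 over genes with both scans in all replicates, where fewer members were tested. Members above 0 in every replicate kept in the fit numbered 2 to 7 with a replicate left out. The 7 were without replicate 1, where 30.8% of all genes lay above 0 in both remaining replicates. The number was 0 of 2 over genes with both scans, 4 after median-centring, 5 after section-centring and 5 after the loess. It was 6 after section-centring without replicate 1. Shares of all genes under the centred and loess settings are not reported here, so no background stands beside these counts. HXT6 ran from -0.23 to 0.58 and HXT7 from -0.27 to 0.53 with a replicate left out. HXT7 was at -0.24 after section-centring, -0.18 after the loess and -0.025 after section-centring without replicate 1. The cause of these changes was not tested. Of 110 member values under alternatives 101 kept their direction and their side of the threshold (for HXT2 and HXT4, stayed within 1 SD), 2 passed the threshold and 7 changed sign. Probe medians, the robust prior and the filters on replicates or on both scans could not change a member's mean. The direction of those values was thus fixed in advance, and the 101 is no measure of stability.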

Other observations

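Of 65 genes of the related lists with a probe, 23 had a value in fewer than 3 replicates and entered no test, and 14 of these lacked replicate 1 alone. Of the 14, 9 were above 0 in both replicates 2 and 3 and 3 were below 0 in both, against 36.9% above and 36.7% below of the 1177 genes on the array with the same gap. After section-centring 12 of the 14 were above 0 in both and 0 below in both, against 38.2% and 25.5%. Among them were transport genes. GAL2, a galactose transporter gene of the HXT family, read 0.91 in replicate 2 and 2.32 in replicate 3, HXT10 read 0.52 and 1.05, and the maltose permease gene MAL11 read 1.06 and 1.49. MTH1, the corepressor gene that keeps HXT genes off without glucose, read 0.18 and 2.39, and MIG3, which codes for a relative of Mig1 and Mig2, read 1.12 and 0.53. ICL1, the isocitrate lyase gene of the glyoxylate cycle, read 1.15 and 1.49, ADY2, an acetate transporter gene, read 3.92 and 0.55, and PDR10, a drug pump gene, read 2.58 and 2.19. After section-centring GAL2 read 0.54 and 1.71, HXT10 0.79 and 1.13, MAL11 0.66 and 1.29, and MTH1 0.11 and 1.50. MIG3 then read 0.15 and 0.81, ICL1 1.76 and 1.47, ADY2 3.23 and 0.98, and PDR10 0.80 and 1.48. REG1, which codes for a phosphatase subunit of glucose repression, read -0.58 and -0.94, the kinase gene SNF1 read -0.40 and -0.61, and the casein kinase gene YCK2 read -0.45 and -0.44. After section-centring they read 0.12 and -0.25 for REG1, 0.37 and -0.005 for SNF1, and 0.32 and 0.17 for YCK2, so no direction can be given for them. HXT17, another close paralog of HXT13, had values in replicates 1 and 2 of 2.38 and 0.09, where HXT13 read 0.04 and 2.31. Their sections differed in the same sense, and after section-centring HXT17 read 0.74 and 1.07 and HXT13 0.87 and 1.51. Its neighbour MAN2, a mannitol dehydrogenase gene, read 1.45 and 0.41 in the same replicates, and 0.49 and 0.89 after section-centring. HXT14 had no value in any scan.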
